A study of Mus musculus with 12 samples.

Results

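The genes of the EGF receptor family and their ligands were followed here through the H3K4me3 and H3K27me3 CUT&Tag profiles of mouse mammary tumour organoids. The 10 genes were taken by name: 4 receptors (Egfr, Erbb2, Erbb3 and Erbb4) and 6 ligands (Areg, Ereg, Hbegf, Tgfa, Btc and Epgn), out of 49943 genes in the reference table, of which 21887 were protein-coding. All 10 had an H3K4me3 region at the gene start or gene end in at least 1 library, against 57.4% of protein-coding genes. CUT&Tag directs the transposase Tn5 to a histone mark with an antibody and sequences the fragments it releases. All libraries came from PyMT derived organoids with a WT genotype label, collected at day 3 of treatment, with about 500000 cells each. PyMT is the polyomavirus middle T antigen, an oncoprotein used to induce mammary tumours in mice, and the sources used here do not name the promoter that drives it. The groups were control-treated (Ctrl), SR2 and THC, and each was profiled for both marks in 2 replicates, which gives 12 libraries. The sources used here do not spell out SR2. The labels number the replicates as batches and do not say whether these were separate cultures, so p-values measure only the spread between these libraries, which may be technical. The descriptions also name different dissociation enzymes, collagenase P with TrypLE in one place and Accutase in another.

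ErbB receptors are tyrosine kinases that pair with each other when a ligand binds. Egfr binds all 6 ligands of this set, Erbb2 has no known ligand of its own and serves as the preferred partner, Erbb3 has a weak kinase and signals through its partner, and Erbb4 binds neuregulins as well as some EGF-like ligands. The ligands are made as membrane-anchored precursors that proteases such as Adam17 release, and amphiregulin, the product of Areg, is known for its part in mammary duct growth. H3K4me3 marks the starts of active or poised genes, and H3K27me3 is laid down by Polycomb complexes at repressed genes.

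The number of H3K4me3 peaks was 18383 and 16442 for the Ctrl libraries, 14812 and 15190 for SR2 and 11924 and 13229 for THC. THC replicate 1 stood apart: the median summit pileup, the peak caller's pile of sequenced fragments at a peak's highest point, was 23 there over the 10140 regions marked in all 6 libraries, against 49 to 128 in the other libraries. Total read depth was not analysed here. Over the same regions, the median covered width was 803 bp in that library and 1029 to 1284 bp in the others. For this reason breadth, the base pairs of a region that peaks of 1 library cover, is given raw and as a change centred on each library's median. Without the centring the median change over all regions was -0.17 for SR2 and -0.52 for THC on the log2 scale. The labelled breast cancer origin was checked on marker genes of mammary epithelium and other cells. All 5 luminal markers had a region and 4 were marked in all 6 libraries, with summed breadth of 7781 and 6882 bp in Ctrl, 6803 and 6400 bp in SR2, and 4292 and 5302 bp in THC. Of the 5 basal markers 3 had a region, and Trp63 and Acta2 had none. The summed breadth of the basal list was 4479 and 4366 bp in Ctrl, 2587 and 4352 bp in SR2, and 0 and 2285 bp in THC, where replicate 1 had no peak at Krt5 or Krt14. Each of the other lists had a region at 1 marker. The fibroblast gene Col1a1 was covered over 1025 and 1045 bp in Ctrl, 901 and 1142 bp in SR2 and 292 and 360 bp in THC, while Col1a2, Pdgfra and Dcn had no region. Lpl of the adipocyte list was covered over 1167 and 1097 bp in Ctrl, 520 and 667 bp in SR2 and 0 bp in both THC libraries, and Adipoq, Fabp4 and Plin1 had none. Kdr (endothelium) reached at most 897 bp and was at 0 bp in both THC libraries, Cd68 (blood) reached at most 391 bp, and Pecam1, Cdh5, Tek, Ptprc, Csf1r, Cd3e and Cd79a had none. The mean of the raw luminal, basal, fibroblast, endothelial and adipocyte sums was lowest in THC. After centring, the median log2 difference of THC from Ctrl was 0.06 for the luminal list, with Krt18 at -1.47 and Cldn4 at -0.42. It was -1.72 for the basal list, which is the value of Krt5 (SE 0.72). The other lists rest on 1 gene each. These were -0.86 at Col1a1 (SE 0.16), -1.81 at Kdr (SE 0.70), -0.45 at Cd68 (SE 0.45) and -2.36 at Lpl (SE 0.32). No marker gene was called by limma. The part of these lists in the results was not tested. In bulk libraries fewer cells with the mark and less mark per cell cannot be told apart.

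Start sequences were available for 7 members, and 5 are shown because these genes span the range from broad marking (Egfr, Erbb2) to narrow marking that some or all treated libraries lack (Areg, Btc, Epgn). Each runs from 250 bases before to 50 bases after the start on its own strand, from RefSeq on GRCm38.p6 (mm10), with CG dinucleotides in capitals. The windows are Egfr at chr11:16751953-16752252 (+ strand), Erbb2 at chr11:98412234-98412533 (+), Areg at chr5:91139349-91139648 (+), Btc at chr5:91402945-91403244 (- strand) and Epgn at chr5:91027267-91027566 (+).
Egfr: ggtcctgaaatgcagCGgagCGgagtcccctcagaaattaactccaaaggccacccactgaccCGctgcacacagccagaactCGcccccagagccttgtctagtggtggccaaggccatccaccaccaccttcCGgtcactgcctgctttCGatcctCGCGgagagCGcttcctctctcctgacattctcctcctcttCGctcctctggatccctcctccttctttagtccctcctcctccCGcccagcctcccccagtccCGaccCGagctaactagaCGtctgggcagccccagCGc
Erbb2: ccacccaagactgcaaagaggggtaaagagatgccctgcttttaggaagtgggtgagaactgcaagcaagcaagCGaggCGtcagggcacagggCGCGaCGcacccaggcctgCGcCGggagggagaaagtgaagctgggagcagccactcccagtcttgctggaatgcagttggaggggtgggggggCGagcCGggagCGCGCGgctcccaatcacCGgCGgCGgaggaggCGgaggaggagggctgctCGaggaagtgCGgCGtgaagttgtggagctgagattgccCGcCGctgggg
Areg: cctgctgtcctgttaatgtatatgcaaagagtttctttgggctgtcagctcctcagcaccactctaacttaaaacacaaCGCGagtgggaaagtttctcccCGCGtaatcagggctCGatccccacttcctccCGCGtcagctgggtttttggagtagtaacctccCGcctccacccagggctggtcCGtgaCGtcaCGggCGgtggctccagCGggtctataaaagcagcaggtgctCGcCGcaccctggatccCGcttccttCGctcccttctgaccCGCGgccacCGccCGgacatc
Btc: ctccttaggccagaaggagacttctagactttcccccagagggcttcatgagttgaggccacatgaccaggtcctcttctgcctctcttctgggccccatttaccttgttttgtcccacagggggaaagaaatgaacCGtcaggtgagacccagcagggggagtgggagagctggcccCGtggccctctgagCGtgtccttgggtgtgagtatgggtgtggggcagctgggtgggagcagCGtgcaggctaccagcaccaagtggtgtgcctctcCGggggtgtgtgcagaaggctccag
Epgn: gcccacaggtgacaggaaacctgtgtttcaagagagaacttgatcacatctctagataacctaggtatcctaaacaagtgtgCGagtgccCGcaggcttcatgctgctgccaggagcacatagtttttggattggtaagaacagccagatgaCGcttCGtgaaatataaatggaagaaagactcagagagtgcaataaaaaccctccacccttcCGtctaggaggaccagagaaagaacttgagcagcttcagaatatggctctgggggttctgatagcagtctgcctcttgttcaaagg

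The Btc and Epgn windows each hold 5 CG dinucleotides, percentile 30.4 of 21263 mouse promoter windows. Those of Egfr, Erbb4, Erbb2, Areg and Tgfa hold 15, 17, 21, 21 and 24, which are percentiles 54.2 to 74.2. Across these promoter windows, the median number of CG dinucleotides was 3 in the 9200 that no library marked and 23 in the 9821 that all 6 libraries marked. The Areg window has a TATA box (TATAAA) with its first base at -31, and a cyclic AMP response element (TGACGTCA), which reads the same on both strands. Epgn has TATAAA at -86 on the gene's strand. Searched on both strands, TATAAA was present in 12.6% of all windows, TGACGTCA in 2.23%, the AP-1 letters TGANTCA in 6.99% and the GC box GGGCGG in 46.2%. No member window held TGANTCA, while GGGCGG was present in those of Egfr, Areg and Tgfa. A match is a description of the letters, not a site of binding. For Erbb3, Ereg and Hbegf the region within 1 kb of either gene end was taken, since no start was used for them.

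Egfr, Erbb2, Erbb3, Hbegf and Tgfa were covered over more than the median width given above in every library. Areg, Btc, Erbb4 and Epgn lay below it in every library, Ereg lay above it in Ctrl (1392 and 1341 bp) and below it in the 4 treated libraries, and Epgn was marked in Ctrl alone. Of the 10 members, 6 were marked in all 6 libraries (Egfr, Erbb2, Erbb3, Ereg, Hbegf and Tgfa), as were 46.5% of protein-coding genes. Areg and Btc were marked in 5 libraries, all except THC replicate 1. Erbb4 and Epgn were marked in 2. The median breadth of the 6 ligands was 1175 and 1176 bp in the Ctrl libraries, 605.5 and 946.5 bp in SR2, and 120 and 716.5 bp in THC. The 4 receptors had medians of 1740 and 1685 bp in Ctrl, 1623 and 1634 bp in SR2, and 1120 and 1452.5 bp in THC.

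**Figure D1:**
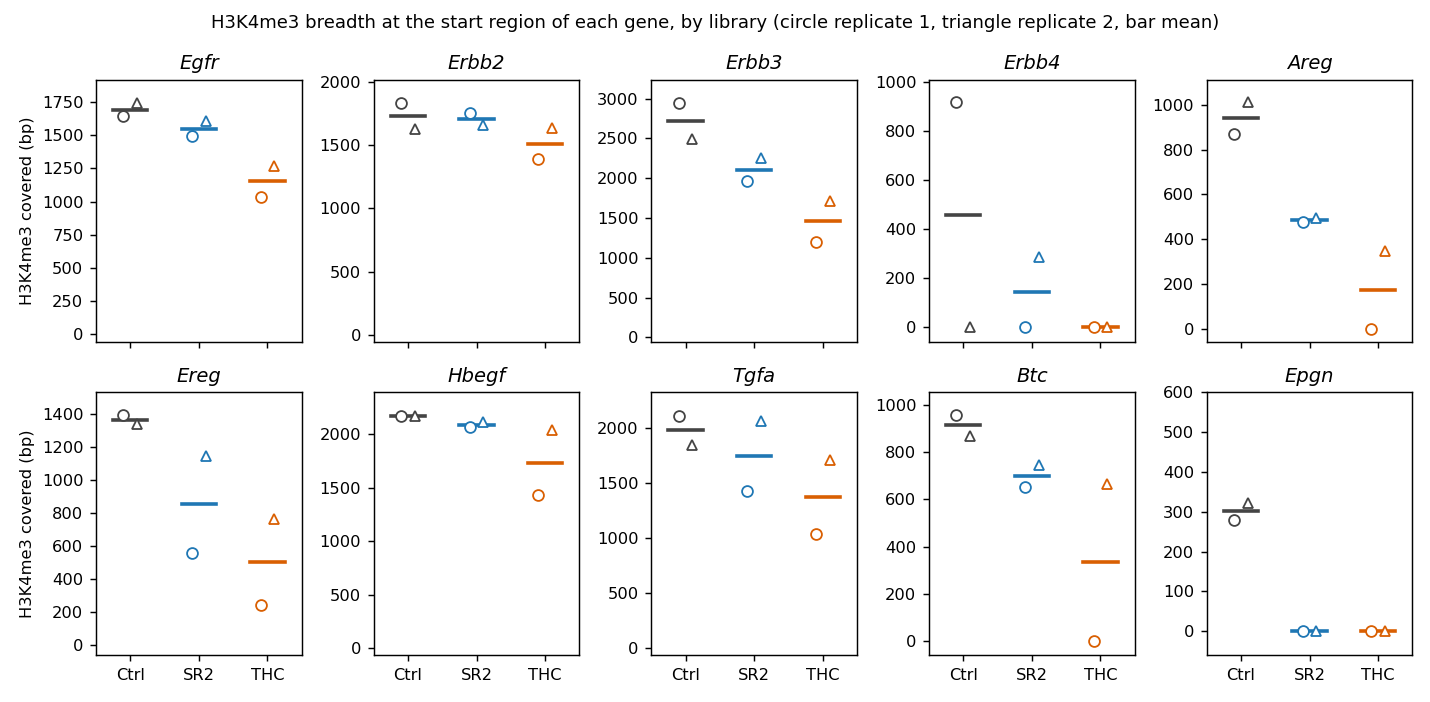
Covered base pairs of H3K4me3 at each of the 10 genes (vertical axes, linear) in each of the 6 H3K4me3 libraries, with points for libraries and bars for the group mean of 2. Erbb2 and Hbegf stay close to their Ctrl values outside THC replicate 1, and Epgn is at 0 bp in all 4 treated libraries.

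Erbb3, the receptor that binds neuregulins and signals through its partner, had the broadest region of the family in Ctrl. Its covered width was 2942 and 2489 bp in Ctrl, 1969 and 2248 bp in SR2, and 1203 and 1716 bp in THC (means ± SD of 2715.5 ± 320, 2108.5 ± 197 and 1459.5 ± 363, n = 2 each). The groups did not overlap, and the THC mean was 53.7% of the Ctrl mean. The region, chr10:128587293-128590565, lies at the higher-coordinate end of the gene. In limma, on log2 of the covered bp plus 200, centred breadth differed by -0.45 (SE 0.11) between THC and Ctrl, with an adjusted p of 0.128. That is the smallest adjusted value in this comparison, but the regions of Grb7, Cldn4, Col1a1 and Lpl share it. By unadjusted limma p, Erbb3 (0.0059) was not the smallest, since Lpl had 0.000356. The SR2 difference at Erbb3 was -0.20 (SE 0.11, adjusted p = 0.793). The difference of THC from Ctrl was -1739 bp in batch 1 and -773 bp in batch 2. Without THC replicate 1 the centred difference was -0.35 (adjusted p = 0.241), and without THC replicate 2 it was -0.52 (adjusted p = 0.0398). It was -0.23 (adjusted p = 0.386) when peaks with a −log10 q from 5 upward were kept, and -0.21 (adjusted p = 0.488) with the same number of peaks from each library. Under the same settings the SR2 difference was -0.0523 and -0.0435.

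The height of the Erbb3 peak, relative to its library, varied little. Its summit pileup was 1.67 and 1.74 times the library median in Ctrl, 1.73 and 1.66 times in SR2, and 1.74 and 1.77 times in THC. The libraries lay within a narrow band, and Ctrl and SR2 overlapped. Both THC libraries lay above the others, by little: THC replicate 1 was at 1.739 and Ctrl replicate 2 at 1.737. Counted from the gene end, with negative positions inside the gene, peaks reached -2299 and -1639 bp in Ctrl, -1038 and -2342 bp in SR2, and -818 and -795 bp in THC. The farthest peaks of Ctrl replicate 1 and SR2 replicate 2 were detached from the main one. When only bases within 1 kb of the gene end were counted, a setting chosen after seeing the data, the THC difference was -0.03 (adjusted p = 0.853).

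**Figure D2:**
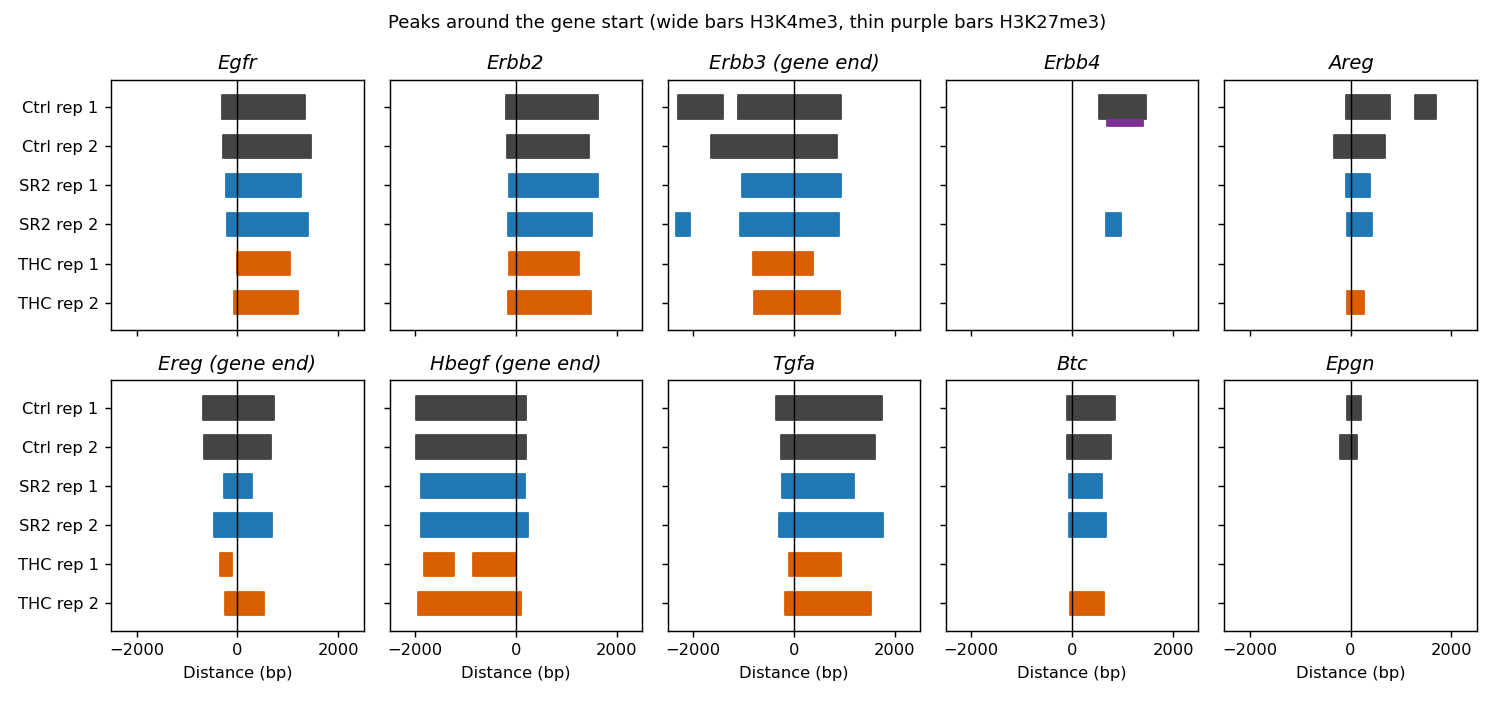
H3K4me3 peaks of each library around the start of each member, or the gene end for Erbb3, Ereg and Hbegf (horizontal axis, distance in bp). Distances run along the gene from its start, or along the chromosome from a gene end, wide bars are H3K4me3 and the thin purple bar at Erbb4 is H3K27me3. At Erbb3 the Ctrl peaks reach -2299 bp and the THC peaks -818 bp.

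Egfr, the receptor of all the ligands in this set, was covered over 1644 and 1744 bp in Ctrl, 1491 and 1604 bp in SR2 and 1037 and 1268 bp in THC. The raw widths fell in that order without overlap between groups. After centring, the THC libraries stayed below both Ctrl libraries, with a log2 difference of -0.11 (SE 0.08, adjusted p = 0.442), and SR2 overlapped Ctrl (0.02, SE 0.08, adjusted p = 1.0). Its region is chr11:16751901-16753668. The Egfr peak began at -302 and -278 bp from the start in Ctrl, and at -2 and -73 bp in THC. Of the 300-base start window printed above, peaks covered 300 bp in each Ctrl library, 283 and 252 bp in SR2, and 52 and 123 bp in THC.

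Erbb2, the partner receptor without a known ligand, was covered over 1836 and 1626 bp in Ctrl, 1755 and 1664 bp in SR2, and 1391 and 1637 bp in THC. Its raw widths overlapped between Ctrl and each treatment. Relative to the library medians it lay above both Ctrl libraries in both SR2 libraries (0.12, SE 0.09, adjusted p = 0.909) and in both THC libraries (0.20, SE 0.09, adjusted p = 0.252), and neither difference passed the threshold. The SR2 value was 0.0394 without SR2 replicate 1 and 0.21 without SR2 replicate 2. The direction depends on the centring, since without it the differences were -0.01 for SR2 and -0.17 for THC. Within each library the region, chr11:98412285-98414120, ranked at percentiles 88.0 to 94.2 of breadth and 85.1 to 95.8 of peak strength, the authors' −log10 q.

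Erbb4, which binds neuregulins, was the receptor with almost no H3K4me3. It was covered over 917 bp in Ctrl replicate 1 and 286 bp in SR2 replicate 2, and over 0 bp in the other 4 libraries. The groups overlapped. The region, chr1:69106604-69107520, lies inside the gene and 539 bp from the start at its nearest base, and the 300-base start window was uncovered in every library. Summit pileups were 10 and 8 fragments, 0.0781 and 0.104 times the library median.

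Hbegf, whose product heparin-binding EGF-like growth factor binds Egfr and Erbb4, had the broadest ligand region in each of the 6 libraries. Its covered width was 2169 and 2174 bp in Ctrl, 2065 and 2118 bp in SR2, and 1432 and 2041 bp in THC. Both treatments lay below Ctrl in raw width. Centred changes were 0.09 (SE 0.10, adjusted p = 0.954) in SR2 and 0.07 (SE 0.10, adjusted p = 0.695) in THC. The region ranked at percentiles 93.4 to 97.7 of breadth, while the summit pileup was 1.08 to 1.63 times the library median. It is shared with the predicted gene Gm41698.

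Tgfa, which encodes transforming growth factor alpha, was covered over 2109 and 1844 bp in Ctrl, 1430 and 2065 bp in SR2, and 1041 and 1708 bp in THC. SR2 overlapped Ctrl and THC did not. The centred differences of -0.04 (SE 0.16) and -0.12 (SE 0.16) had adjusted p-values of 1.0 and 0.677. The sign of the batch values differed, since in THC the centred difference was -0.33 in batch 1 and 0.09 in batch 2. Its summit pileup stayed at 0.939 to 1.11 times the library median.

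Epgn, Ereg, Areg and Btc lie in a row on chromosome 5, with 375.5 kb between the starts of Epgn and Btc. Their regions at chr5:91027315-91027725, chr5:91073945-91075336, chr5:91139270-91140377 and chr5:91402145-91403102 had low pileups throughout, at most 0.568 times the library median. In a window spanning the row, peaks covered 3901 and 3544 bp in Ctrl, 2605 and 2682 bp in SR2, and 484 and 1781 bp in THC. These raw totals did not overlap between groups, and THC replicate 1 was the lowest library. They include a few peaks away from the 4 start regions, such as 336, 294 and 287 bp in SR2 replicate 1. Peaks at the start regions were 559, 477 and 652 bp in that library, and 766, 348 and 667 bp in THC replicate 2. Over the start regions alone SR2 and THC therefore overlapped, and both stayed below Ctrl.

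**Figure D3:**
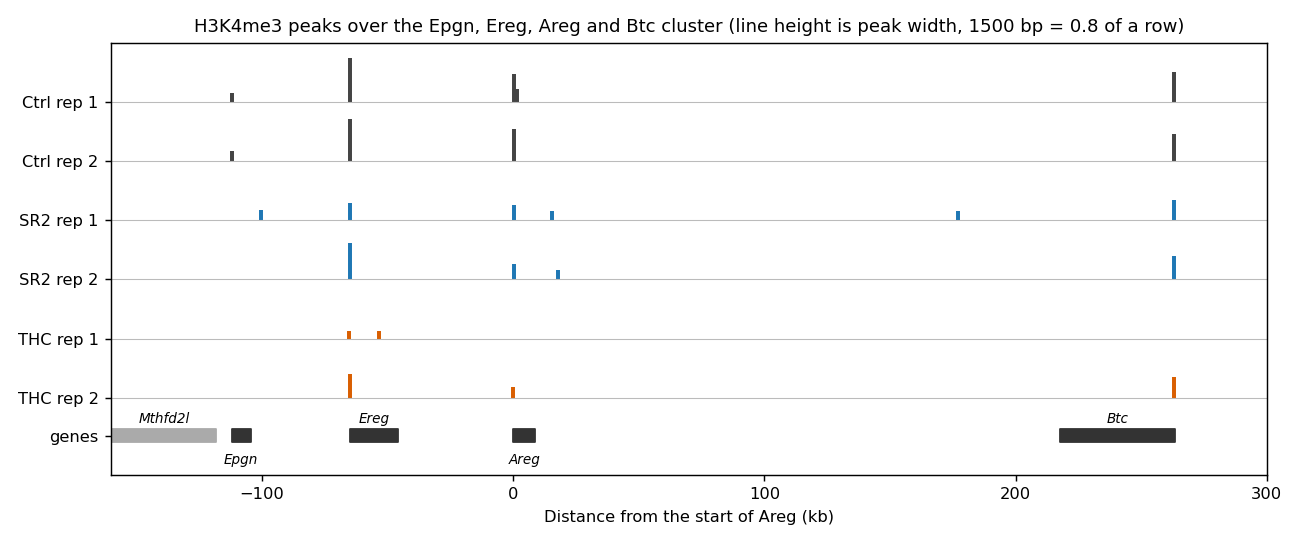
H3K4me3 peaks per library along the chromosome 5 row of Epgn, Ereg, Areg and Btc (horizontal axis, distance from the Areg start in kb), with genes drawn as bars and the height of each line giving the peak's width. Ctrl libraries hold peaks at all 4 genes, and THC replicate 1 holds 2 peaks covering 484 bp in all.

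Areg, amphiregulin, was covered over 868 and 1011 bp in Ctrl, 477 and 494 bp in SR2, and 0 and 348 bp in THC (means ± SD of 939.5 ± 101, 485.5 ± 12.0 and 174 ± 246, n = 2 each). The 3 groups did not overlap. The centred difference was -0.59 (SE 0.45, adjusted p = 0.910) in SR2 and -1.40 (SE 0.45, adjusted p = 0.154) in THC. The value for THC replicate 1 decides much of this, since without that library the THC difference was -0.81 (adjusted p = 0.239) and without THC replicate 2 it was -1.98 (adjusted p = 0.0243). The summit pileup relative to the library median was 0.383 and 0.379 in Ctrl, 0.286 and 0.325 in SR2, and 0.358 in THC replicate 2.

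Ereg, epiregulin, was covered over 1392 and 1341 bp in Ctrl, 559 and 1149 bp in SR2, and 240 and 766 bp in THC. Both treatments lay below Ctrl, and overlapped each other. The centred difference was -0.49 (SE 0.35, adjusted p = 0.891) in SR2 and -0.89 (SE 0.35, adjusted p = 0.209) in THC, which became -0.45 (adjusted p = 0.469) without THC replicate 1. The SR2 value was -0.13 without SR2 replicate 1 and -0.86 without SR2 replicate 2. Keeping peaks with a −log10 q from 5 upward gave -1.46 in SR2 and -1.48 in THC (adjusted p = 1.0 and 0.442). The region is shared with the predicted gene Gm19610.

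Btc, betacellulin, a ligand of Egfr and Erbb4, was covered over 958 and 870 bp in Ctrl, 652 and 744 bp in SR2, and 0 and 667 bp in THC. SR2 and THC lay below Ctrl. In THC the centred difference was -1.04 (SE 0.58, adjusted p = 0.324), and it rested on THC replicate 1: without it the difference was -0.11 (adjusted p = 0.707). Without THC replicate 2 it was -1.95 (adjusted p = 0.0176). The SR2 difference was -0.17 (SE 0.58, adjusted p = 1.0).

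Epgn, epigen, an Egfr ligand, was covered over 280 and 322 bp in Ctrl and is listed at 0 bp in all 4 treated libraries. Summit pileups in Ctrl were 10 and 13 fragments, 0.0781 and 0.137 times the library median, and the peaks ranked at percentiles 0.478 and 8.03 of breadth. The fitted differences of -1.18 (SE 0.31, adjusted p = 0.135) in SR2 and -0.95 (SE 0.31, adjusted p = 0.159) in THC depend on the added 200 bp and are no bound. With 50 bp added in its place, they were -2.65 (adjusted p = 0.0179) and -2.38 (adjusted p = 0.0263), and with no centring the adjusted p-values were 0.0153 and 0.0138. Epgn entered these fits through the Ctrl libraries alone, so the p-values are no support for a change. When only peaks with a −log10 q from 5 upward were kept, no member was marked in both Ctrl libraries and neither library of a treatment. Of the 9 members marked in both Ctrl libraries, Epgn alone was unmarked in both libraries of SR2, and it alone of THC. Among all regions marked in both Ctrl libraries, 7.84% were unmarked in both SR2 libraries and 17.5% in both THC libraries.

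Across the family, limma with Benjamini-Hochberg adjustment over all 15772 regions called no member in any of the 3 comparisons at 0.05, and 0% of all regions were called in each. At an unadjusted p under 0.05, 1 member (Epgn) was narrower in SR2 and 4 (Erbb3, Areg, Ereg and Epgn) were narrower in THC than in Ctrl, and none was wider. The corresponding shares of all regions were 8.91% narrower and 0.653% wider for SR2, and 18.4% and 4.41% for THC. Epgn entered the fit through the Ctrl libraries alone, which fixed its direction, so its place in these counts is no support for a change. The shares of all regions include regions of this kind too. The median change of the 10 members was -0.18 in SR2 and -0.66 in THC, beside -0.03 and -0.15 over all regions. The comparisons share the Ctrl libraries.

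**Figure D4:**
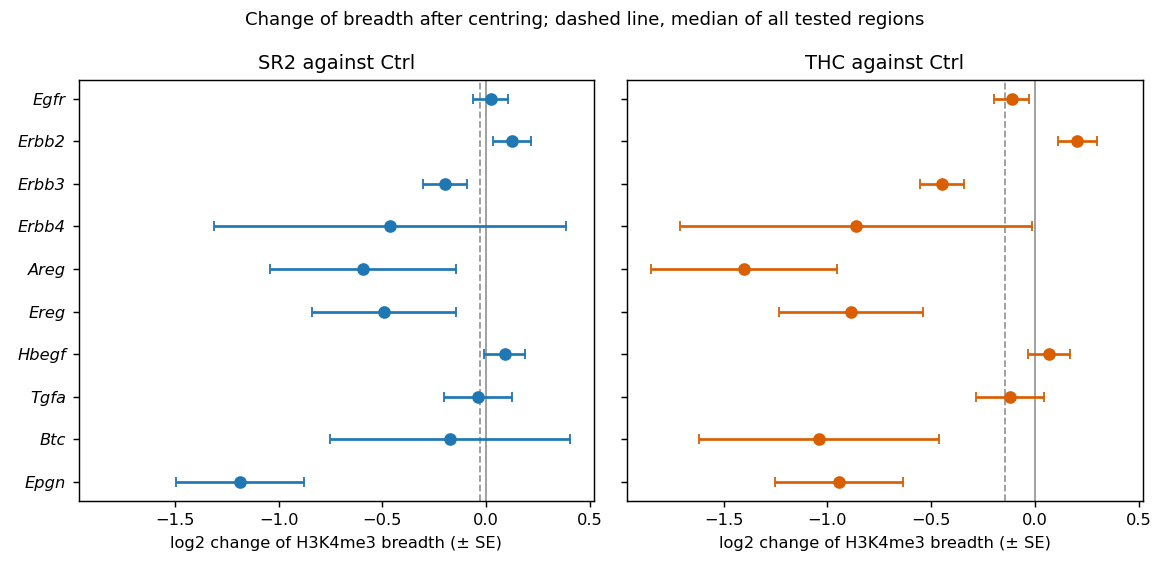
Centred log2 change in H3K4me3 breadth of each member in SR2 and in THC against Ctrl (horizontal axis), with bars of 1 SE from limma and a dashed line at the median of all tested regions. Areg shows the largest THC change at -1.40, Erbb2 and Hbegf lie above 0 in both comparisons, and no value passes the threshold.

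Raw width was lower in both SR2 libraries than in both Ctrl libraries at 7 members, beside 49.4% of all regions and 48.8% of those given to protein-coding genes. For THC it was lower at 8 members, beside 80.3% and 83.9%, so the members' share is near the background. After centring, 5 members were lower in SR2 (25.4% of all regions) and 6 in THC (35.6%), while Erbb2 and Hbegf were higher in SR2 (18.1%) and Erbb2 in THC (20.2%).

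THC and SR2 were compared directly in the same fit. At an unadjusted p under 0.05 no member differed, beside 6.84% of all regions narrower and 1.84% wider. Raw width was lower in both THC libraries at Egfr, Erbb2, Erbb3, Areg and Hbegf, 5 members beside 40.6% of all regions and 48.3% of those given to protein-coding genes, and centred width at Egfr, Erbb3 and Areg (17.5%). Those 3 centred differences were -0.13 (SE 0.08), -0.25 (SE 0.11) and -0.81 (SE 0.45), with adjusted p-values of 0.678, 0.600 and 0.658. A p-value over the threshold does not show that the 2 treatments act alike.

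**Figure D5:**
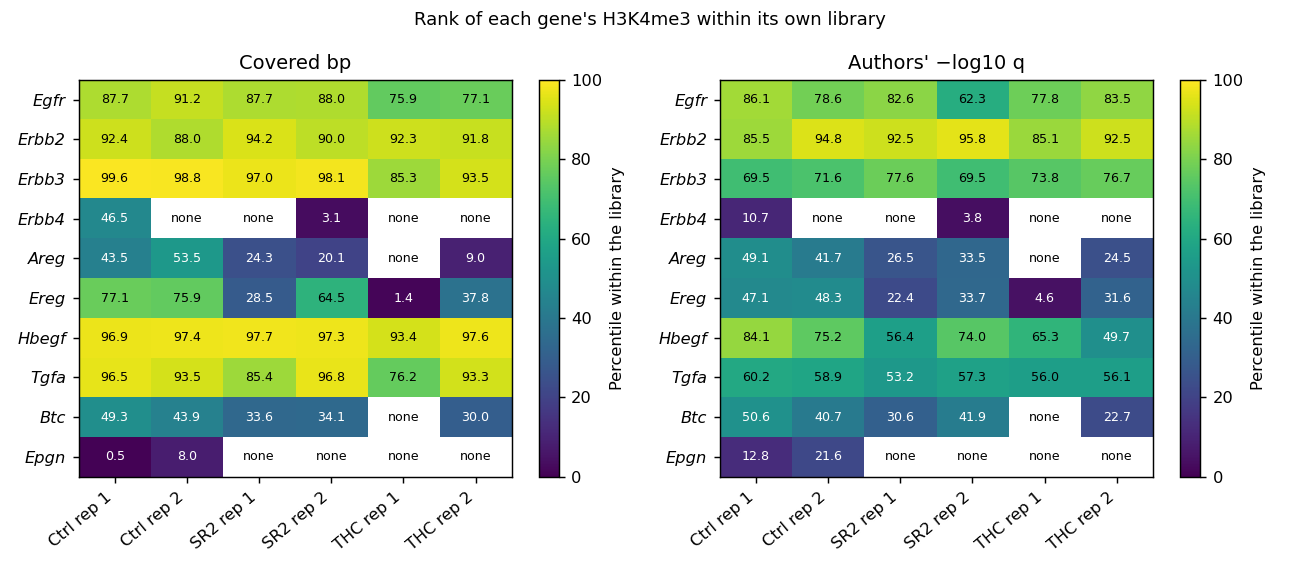
Percentile of breadth and of peak strength of each member within its own library, as colour from 0 to 100 with genes as rows and libraries as columns, and none where no peak was found. Erbb2 lies at percentiles 85.1 to 95.8 on both scales, and Areg, Btc and Epgn lie lower than Erbb2 on both.

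Besides the start regions, 12 H3K4me3 regions lay in a member or within 5 kb of one, 9 of them in the gene. Of these, 7 were marked in 1 library only, and 2, those of the neighbours Mien1 and Pa2g4, in all 6. A region inside Erbb2, 6.7 kb from its start at chr11:98418612-98419683, was covered over 1036 and 657 bp in Ctrl, 279 and 972 bp in SR2, and 0 bp in both THC libraries. SR2 overlapped Ctrl and THC did not. The fitted THC difference was -1.99 (SE 0.50, adjusted p = 0.128), and that from SR2 was -1.67 (SE 0.50, adjusted p = 0.374). Inside Tgfa, 24.5 kb from the start at chr6:86219441-86220013, a region was covered over 573 and 371 bp in Ctrl and 0 bp in all 4 treated libraries. A region inside Egfr at 78.4 kb from the start, chr11:16830258-16830903, is also given to the gene Egfros and was covered over 466 and 296 bp in Ctrl and 0 bp in the treated libraries. The adjusted p-values of the Tgfa region were 0.122 in SR2 and 0.128 in THC, and those of the Egfr region 0.122 and 0.143. Like Epgn, both regions entered the fit through the Ctrl libraries alone, which fixed their direction. Their p-values are therefore no support for a change. The Egfr peaks also ranked low in peak strength in both Ctrl libraries. Of the 5 additional regions marked in both Ctrl libraries, 2 were unmarked in both SR2 libraries and 3 in both THC libraries. The 7.84% and 17.5% given above cover all regions, gene starts among them. They are not matched to regions away from starts, so no excess can be read from these counts.

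Few members carried an H3K27me3 peak. The number of such peaks was 2712 and 387 for the Ctrl libraries, 840 and 157 for SR2 and 984 and 70 for THC, so that a gene free of peaks in the short lists may still carry the mark. Over the gene and 5 kb on either side, a peak was found in 2 of the gene and library pairs. Erbb4 had 707 bp in Ctrl replicate 1, with a fold enrichment of 3.48 as the authors deposited it. All of it lay inside the H3K4me3 peak of Ctrl replicate 1, which comes from a separate library. The H3K27me3 peak was weak, with a −log10 q of 1.20, at percentile 10.1 of its list. Erbb3 had 323 bp in THC replicate 1, 1179 bp outside the gene and within 1 kb of Pa2g4. By the same rule 7.92% and 1.11% of protein-coding genes had a peak in the Ctrl libraries, 2.96% and 0.507% in those of SR2, and 3.07% and 0.137% in those of THC.

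The wider pathway was read from 45 further genes. Of these 41 had an H3K4me3 region and 39 were marked in all 6 libraries, while Nrg1, Nrg3, Nrg4 and Rhbdf2 had none. No gene was called by limma in any comparison. Among the 27 adaptors and effectors, at an unadjusted p under 0.05, centred breadth was higher at 1 gene in SR2 (0.653% of all regions), and in THC it was lower at 2 genes and higher at 7 (18.4% and 4.41% of all regions). The 1 in SR2 was Akt1, a kinase downstream of the receptors, with a centred difference of 0.24 (adjusted p = 0.342) in SR2 and 0.29 (adjusted p = 0.143) in THC. Its raw width was 1098 and 1085 bp in Ctrl, 1167 and 1210 bp in SR2, and 927 and 1108 bp in THC. Grb7, an adaptor that binds phosphorylated ErbB receptors and a near neighbour of Erbb2, was 1 of the 2 lower in THC. It was covered over 2183 and 2076 bp in Ctrl, 1374 and 1794 bp in SR2, and 855 and 1293 bp in THC, a centred THC difference of -0.51 (SE 0.12, adjusted p = 0.128). The groups did not overlap. Hras, a small GTPase, was the other (-0.32, SE 0.12, adjusted p = 0.189). Of the broadest adaptor genes in Ctrl, Gab1 was covered over 2134 and 2118 bp in Ctrl and 2055 and 2076 bp in THC, a centred difference of 0.34 (adjusted p = 0.192), and Shc1 over 2081 and 2042 bp in Ctrl and 923 and 1600 bp in THC (-0.29, adjusted p = 0.261).

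Among the proteases and carriers of ligand release, Adam10, Adam17 and Rhbdf1 had regions and centred THC differences of 0.02, 0.05 and 0.01. Of the 9 genes that restrain the receptors, all were marked in all 6 libraries, and Cblb, a ubiquitin ligase, was the 1 with an unadjusted p under 0.05 in THC. Its raw width was 1279 and 1173 bp in Ctrl and 1141 and 1165 bp in THC, lower in THC, while the centred difference was 0.30 (adjusted p = 0.194). The broadest of them in Ctrl were Lrig1, Socs5, Ptpn1 and Cbl, with centred THC differences of 0.21, 0.14, 0.03 and -0.06. Of the other ligands, the founding ligand gene Egf was covered over 637 and 485 bp in Ctrl, 423 and 501 bp in SR2 and 0 and 322 bp in THC, and the neuregulin gene Nrg2 over 1619 and 1707, 1888 and 1628, and 1291 and 1485 bp. At Egf both THC libraries lay below Ctrl, and the centred difference was -0.85 (SE 0.46, adjusted p = 0.313).

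The genes with the most similar breadth profile were named for the 3 members marked in all libraries with the widest range, by Euclidean distance of centred log2 breadth over 6 libraries among 9669 genes. For Erbb3 they were Pcdh1 (0.291), Kctd15 (0.302) and Bcr (0.324). For Ereg they were Kbtbd11 (0.243), Gmppa (0.303) and Gab2 (0.419), and Gab2 is an adaptor of the pathway list. For Tgfa they were Sdc4 (0.198), Ppp1r14b (0.221) and Sppl3 (0.229). The distances share the libraries and their depth, and are given as a description.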

How the data were processed

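CUT&Tag libraries for H3K4me3 and H3K27me3 (6 each) were analysed from the authors' peak lists. Per the submitters' processing notes, the tools were MACS3, bedtools, deepTools, SAMtools 1.8, Picard, Bowtie2 2.5.4 and cutadapt 5.2, on mm10, with no roles stated. Each deposited peak gives a score, a fold enrichment as a ratio, a −log10 p, a −log10 q and a summit offset, and the peak names carry 1 library each, so the authors called peaks per library. Read depth is unknown from these files.

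Peaks sharing at least 1 bp were merged over the 6 H3K4me3 libraries on chromosomes 1 to 19, X and Y into 24596 regions, of which 15772, marked in at least 2 libraries, were tested. Breadth is covered bp, on the log2 scale with 200 bp added, centred on the median of the 10140 regions marked in all libraries. limma 3.58.1 (R 4.3.3, trend) fitted all 6 libraries with treatment as term, Benjamini-Hochberg adjustment and a threshold of 0.05. A run on simulated data gave all regions the same spread, unlike here, so it does not show the error rate in these data. Summit pileup was recovered from the deposited fold and −log10 p values, which gave whole numbers within 0.05 for 100% of peaks. A gene took the region with the most covered bp within 1 kb of its start, from RefSeq, or of either gene end where no start was used.

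Replicate numbers mark batches in the labels, so they pair libraries. Deviations of same-numbered libraries correlated at -0.06, 0.03 and 0.05 over 15772 regions, and the paired fit is an alternative. Other alternatives were the pseudocount, centring, filters, peak threshold, merging and leaving out each library. All 10 members are named, and from each pathway list up to 4 genes with the widest H3K4me3 in Ctrl. Akt1 and Cblb were chosen after their values were seen. The 3 genes most alike were named for each of 3 members. Members and lists were chosen with earlier results of these data known.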

Additional observations from a re-analysis of the deposited data

How the results depend on the processing

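Changing 1 choice at a time, a pseudocount of 50 bp called 1 member (Epgn) in SR2 and 1 in THC against Ctrl, and so did the fit with no centring. Epgn is in these fits through the Ctrl libraries alone, so the calls are no support for a change. Leaving out 1 library gave 0 to 3 called members for THC against Ctrl, the 3 being Erbb3, Areg and Btc without THC replicate 2, and 0 to 1 (Btc) for THC against SR2. The number marked in both Ctrl and no treated library, 1 for each treatment, was 0 for both with −log10 q of at least 5 and with equal peak numbers, and 0 for SR2 with all regions in the gene or within 5 kb. With at least 500 bp required it stayed at 1 for each treatment, but the gene was Areg in place of Epgn. It was 1 to 3 for THC when 1 library was left out, with 2 without Ctrl replicate 2 and 3 without THC replicate 2. H3K27me3 was found in 1 pair without the flank and in 0 with −log10 q of at least 2.

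Direction reversed in a few cases. Leaving out the centring shifts all regions of a comparison by the same amount, so small positive values turn negative. The cause of the other reversals was not tested. With no centring, SR2 against Ctrl gave -0.12 at Egfr, -0.0144 at Erbb2 and -0.0496 at Hbegf, and THC against Ctrl gave -0.17 at Erbb2 and -0.31 at Hbegf. With quantile normalization Epgn was 0.0172 in SR2 and 0.43 in THC, and Hbegf was -0.00223 in THC. Counting only bases within 1 kb of the start, chosen after seeing the data, gave 0.13 at Erbb3 and 0.0768 at Tgfa in SR2, 0.0501 at Egfr and 0.12 at Tgfa in THC, and 0.0140 at Egfr for THC against SR2. Leaving out 1 library gave ranges of -0.0563 to 0.10 at Egfr, -1.66 to 0.13 at Erbb4 and -0.22 to 0.15 at Tgfa in SR2, and of -0.0103 to 0.16 at Hbegf and -0.28 to 0.0594 at Tgfa in THC. Areg, Ereg and Btc kept their negative sign in both treatments, and Erbb3 in THC, under every alternative run.

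With the replicate block, which pairs libraries by batch, 0 members were called in each comparison and no call changed; the adjusted p was 0.193 at Erbb3 and 0.196 at Areg for THC. Over all regions, calls for THC against Ctrl were 0 in the reported fit, 20 wider and 1397 narrower with a pseudocount of 50 bp, 6 and 1908 with no centring, 18 and 1911 with the 4 libraries compared alone and 489 and 1694 without THC replicate 2. For SR2 against Ctrl they were 0 in the reported fit, and 27 wider and 1032 narrower, then 24 and 970, under the first 2 of these. Where a left-out library leaves 1 in a group, that library is assumed to vary like the others. Total depth is unknown, and the low pileups of THC replicate 1 limit what its narrow regions can show.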
